A study of Mus musculus with 8 samples.

Results

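The 10 genes of the VEGF and angiopoietin systems that were described here are the ligands Vegfa, Vegfb, Vegfc, Pgf, Angpt1 and Angpt2 and the receptors Flt1, Kdr, Nrp1 and Tek. They were chosen by their symbols, and all 10 were found once among the 31053 genes of the deposited tables. The study placed B16F10 cells, a mouse melanoma line, under the skin of mice that lacked or kept the stress-response transcription factor ATF4, and dissociated the grown tumours for droplet single-cell RNA sequencing. The 8 large tumours analysed here came from 4 Atf4WT/WT hosts (ATF4 WT in the labels) and 4 Atf4Δ/Δ hosts (ATF4 KO), with 1 library per tumour and hosts of both sexes, aged 12 weeks in the labels and somewhat younger in the study's methods. Every host of both groups carried the tamoxifen-inducible Rosa26::CreERT2 and received tamoxifen, and Atf4 was floxed in the Atf4Δ/Δ hosts only. The deletion was therefore global in the host and bound to no cell type, while the injected B16F10 cells kept their own Atf4 in both groups. No sorting step was given, so the share of each cell type was also set by how well it survived dissociation.

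VEGF ligands are secreted by tumour and stromal cells and act on tyrosine kinase receptors of the blood vessel wall. Vegfa binds both VEGFR1, encoded by Flt1, and VEGFR2, encoded by Kdr, the main signalling receptor of endothelial cells. Pgf and Vegfb bind VEGFR1 and not VEGFR2, and Vegfc acts mainly on the lymphatic receptor encoded by Flt4 and also on VEGFR2. Nrp1 encodes a co-receptor for ligands of the VEGF family and for class 3 semaphorins. The angiopoietins bind TIE2, encoded by Tek, with angiopoietin 1 from mural and stromal cells as the stabilising agonist and angiopoietin 2 as a context-dependent ligand that is stored and released by endothelial cells.

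In GRCm38 with the GENCODE vM21 annotation, Vegfa lies at chr17:46016993-46032369, Vegfb at chr19:6982473-6987651, Vegfc at chr8:54077606-54187096, Pgf at chr12:85166635-85177790, Angpt1 at chr15:42424723-42676977 and Angpt2 at chr8:18690263-18741562. Among the receptors, Flt1 lies at chr5:147561604-147726011, Kdr at chr5:75932827-75978458, Nrp1 at chr8:128358604-128503363 and Tek at chr4:94739289-94874976. Vegfc, Nrp1 and Tek are on the plus strand and the others on the minus strand. Angpt1 overlaps Gm17473 and Angpt2 overlaps Mcph1, both on the opposite strand.

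Promoter sequences from RefSeq (GRCm38.p6, the 250 bases before the transcription start, 5′ to 3′ on the strand of the gene) were matched for 8 of the 10 genes, and not for Angpt1 and Angpt2. The sequences of 3 are shown, because the class and state differences below turn on these genes: Vegfa, which was higher in hypoxia-high cells, and Flt1 and Kdr, which were highest in endothelial-like cells. Capitals mark the letters GGAA, the core that ETS factors bind (TTCC on the other strand), and TGACGTCA, the cAMP response element; both strands were searched and the motifs were chosen after the sequences had been seen. The Vegfa sequence is marked instead for ACGTG, a form of the core of the hypoxia response element. It has no capitals because these letters were not found in its window. The other form, GCGTG, and bases further upstream were not searched.

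Vegfa, chr17:46032378-46032627, minus strand: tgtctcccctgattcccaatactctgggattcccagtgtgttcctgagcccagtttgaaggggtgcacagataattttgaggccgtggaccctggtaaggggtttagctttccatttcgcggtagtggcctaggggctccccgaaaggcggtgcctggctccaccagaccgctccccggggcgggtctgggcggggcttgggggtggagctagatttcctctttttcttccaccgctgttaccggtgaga
Flt1, chr5:147726012-147726261, minus strand: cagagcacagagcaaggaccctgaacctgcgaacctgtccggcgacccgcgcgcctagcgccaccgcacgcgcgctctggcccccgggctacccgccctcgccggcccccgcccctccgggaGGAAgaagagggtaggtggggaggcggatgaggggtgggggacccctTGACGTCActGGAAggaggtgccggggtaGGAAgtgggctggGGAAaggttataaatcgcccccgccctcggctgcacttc
Kdr, chr5:75978456-75978705, minus strand: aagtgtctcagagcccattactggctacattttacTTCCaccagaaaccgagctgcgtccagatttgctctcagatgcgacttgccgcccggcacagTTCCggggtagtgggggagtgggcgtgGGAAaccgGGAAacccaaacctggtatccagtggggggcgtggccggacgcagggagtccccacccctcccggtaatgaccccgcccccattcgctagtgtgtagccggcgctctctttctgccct

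GGAA occurred 4 times in the Flt1 window, 4 times in the Kdr window and 6 times in the Vegfa window, against a mean of 2.91 over the 32851 promoters of this length, 93.4% of which held at least 1 copy. TGACGTCA was found once in the Flt1 window and in 1.55% of all promoters, and ACGTG in none of the 8 windows and 16.6% of all promoters. These are matches of letters in a short window and not measured binding.

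After the filters, 28169 of 41925 barcodes were analysed, with 2706 to 5573 cells per tumour, and the deposited tables held 37283598 to 74942137 unique molecular identifiers (UMIs) per tumour. Melanoma-like cells, which carried pigment genes, made up 23716 of them, and cancer-associated fibroblast (CAF)-like cells 590, tumour-associated macrophage (TAM)-like cells 325, other immune cells 412, pericyte-like cells 61 and endothelial-like cells 34. The 10 genes were left out of the clustering and of all marker lists. Levels are given in CPM, the UMIs of a gene scaled to 1e+06 UMIs of the same cells. Atf4, whose exons 2 and 3 at the end read by the assay are the floxed part, checked the labels. In CAF-like cells it was at 45.9 to 96.1 CPM in the 3 tested Atf4Δ/Δ tumours and at 253 to 321 CPM in the 4 Atf4WT/WT tumours, while in melanoma-like cells the ranges were 310 to 442 and 262 to 410 CPM. The log2 fold change in CAF-like cells was −2.05 (edgeR adjusted p = 0.0026), and in TAM-like cells the ranges were 33.0 to 130 and 68.6 to 253 CPM. Some Atf4 RNA was thus still counted in both classes of the Atf4Δ/Δ tumours. How much of it came from melanoma cells was not tested. Melanoma RNA was counted in all host classes, and whether it was free RNA or doublets was not tested: melanoma marker transcripts in CAF-like, TAM-like and endothelial-like cells stood at 4.63%, 7.23% and 5.87% of their level in melanoma-like cells. Tumours in which a class had fewer than 10 cells were not tested in it, which left out Atf4Δ/Δ replicate 3 for CAF-like cells and Atf4WT/WT replicate 2 for TAM-like cells.

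The ligands fell into those highest in stromal cells and those highest in the melanoma. Vegfa was at 331 CPM in CAF-like cells (906 UMIs; 95% Poisson interval 310–354), at 250 CPM in other immune cells (208–298), at 65.8 CPM in melanoma-like cells (64.8–66.8) and at 27.0 CPM in TAM-like cells (17.1–40.5). Endothelial-like and pericyte-like cells held 1 and 3 Vegfa UMIs. Intervals of this kind cover counting error only and not the spread between tumours. By tumour the CAF-like levels ran from 162 to 463 CPM and those of other immune cells from 135 to 338 CPM, so that these neighbours in the order overlapped.

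Pgf, placental growth factor, had the same leading class. It was at 251 CPM in CAF-like cells (686 UMIs; 232–270), 125 CPM in pericyte-like cells (79.9–186), 16.6 CPM in melanoma-like cells and 4.70 CPM in TAM-like cells. Vegfc was at 36.9 CPM in CAF-like cells (30.1–44.9) and 8.75 CPM in melanoma-like cells, with 42.2 CPM (11.5–108) from 4 UMIs in endothelial-like cells. TAM-like cells held no Vegfc UMI. With a floor of 3 counts over the class, the level was 2.48-fold higher in melanoma-like than in TAM-like cells. Vegfb had the reverse order: it was at 112 CPM in melanoma-like cells, 51.7 CPM in TAM-like cells (37.6–69.4) and 23.8 CPM in CAF-like cells (18.3–30.3).

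The angiopoietins were seen in different cells from each other. Angpt2 was highest in endothelial-like cells at 433 CPM (41 UMIs; 311–587), followed by pericyte-like cells at 93.6 CPM (18 UMIs; 55.4–148). TAM-like and melanoma-like cells, at 12.9 CPM (6.45–23.1) and 11.7 CPM (11.3–12.1), could not be told apart by counting error. Angpt1 was rare, with 26 UMIs in all cells, of which 13 lay in CAF-like and 9 in melanoma-like cells. All 13 of the former lay in 1 of the 2 CAF-like subclusters, the one led by Ptx3, Cxcl13 and Ogn. This subcluster had 406 of the 590 CAF-like cells, and 5 of the 13 UMIs came from Atf4WT/WT replicate 1.

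Among the receptors, Flt1 and Kdr were concentrated in the 34 endothelial-like cells. Flt1 was at 1890 CPM there (179 UMIs; 1624–2188), 198 CPM in pericyte-like cells (38 UMIs), 21.6 CPM in CAF-like cells (59 UMIs) and 0.0816 CPM in melanoma-like cells (21 UMIs). The endothelial-like level was 9.57-fold that of pericyte-like cells (counting interval 6.71–14.0) and 87.6-fold that of CAF-like cells (64.9–120). By tumour it was 2192, 2546 and 1405 CPM in Atf4WT/WT replicates 1, 3 and 4 and 1301, 1114, 2532 and 1026 CPM in Atf4Δ/Δ replicates 1 to 4, and Atf4WT/WT replicate 2 had no endothelial-like cell. The groups overlapped, and each tumour had 1 to 15 of these cells, so no test was made. When endothelial cells were instead picked from any cluster by UMIs of at least 3 of the 10 endothelial markers, 64 of the 98 cells were melanoma-like and Flt1 was at 166 CPM and Kdr at 70.1 CPM; without those 64 the levels were 1529 and 645 CPM.

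Kdr was at 781 CPM in endothelial-like cells (74 UMIs; 614–981) and had no UMI in CAF-like or pericyte-like cells. With a floor of 3 counts over the class, the endothelial-like level was 712-fold that of CAF-like cells and 50.1-fold that of pericyte-like cells. The counting intervals of these ratios, taken without the floor, began at 565 and 39.7. By tumour Kdr in endothelial-like cells was at 857, 141 and 843 CPM in Atf4WT/WT replicates 1, 3 and 4. It was at 650, 446, 814 and 1466 CPM in Atf4Δ/Δ replicates 1 to 4, again with overlap. Of the 34 cells, 24 held UMIs of both receptors, 6 of Flt1 only, 1 of Kdr only and 3 of neither.

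Outside the endothelial-like cells, the 2 receptors were not counted together in every class. CAF-like cells held 59 Flt1 and 0 Kdr UMIs, pericyte-like cells 38 and 0, other immune cells 9 and 8, TAM-like cells 1 and 5, melanoma-like cells 21 and 2 and the mixed CAF and melanoma barcodes 6 and 2. Of the 8 Kdr UMIs in other immune cells, 7 were in 1 subcluster. The 10 endothelial markers summed to 8480 CPM in endothelial-like, 374 CPM in pericyte-like and 131 CPM in CAF-like cells. In CAF-like cells 6 of the 10 had UMIs, with 313 of Ecscr, 19 of Egfl7, 16 of Plvap and 8 of Pecam1, and Cdh5, Emcn, Cldn5 and Robo4 had none. In pericyte-like cells 5 had UMIs, with 43 of Esam, 17 of Ecscr and 6 of Emcn, and Pecam1, Cdh5, Cldn5, Robo4 and Mmrn2 had none. The part of endothelial cells or RNA in the Flt1 counts of these classes was not tested.

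Nrp1 was seen in melanoma-like, CAF-like, TAM-like, other immune, pericyte-like and endothelial-like cells alike. It was at 496 CPM in endothelial-like cells (365–660), 199 CPM in TAM-like cells (170–231), 104 CPM in pericyte-like cells (63.5–161), 65.8 CPM in CAF-like cells (56.6–76.2) and 11.5 CPM in melanoma-like cells (11.1–11.9). The intervals of TAM-like and pericyte-like cells did not overlap, those of pericyte-like and CAF-like cells did. Tek, the angiopoietin receptor, had 29 UMIs in all, 24 of them in CAF-like cells, 3 in endothelial-like cells and 1 in melanoma-like cells. By tumour Tek in CAF-like cells was at 4.87, 0, 0 and 5.28 CPM in Atf4WT/WT replicates 1 to 4 and at 6.27, 11.3 and 13.8 CPM in Atf4Δ/Δ replicates 1, 2 and 4, while Atf4Δ/Δ replicate 3 had 8 CAF-like cells and no Tek UMI. Without that replicate the groups did not overlap, but they held 2 and 22 UMIs in all, from 24 to 61 and 89 to 196 CAF-like cells per tumour, and Tek was too low to be tested between genotypes. Of the 24 UMIs, 22 lay in the subcluster led by Ptx3, Cxcl13 and Ogn, which had 406 of the 590 CAF-like cells. At 31.7 CPM (6.53–92.6) in endothelial-like and 8.78 CPM (5.62–13.1) in CAF-like cells, the 2 levels were not separated at this depth.

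**Figure D1:**
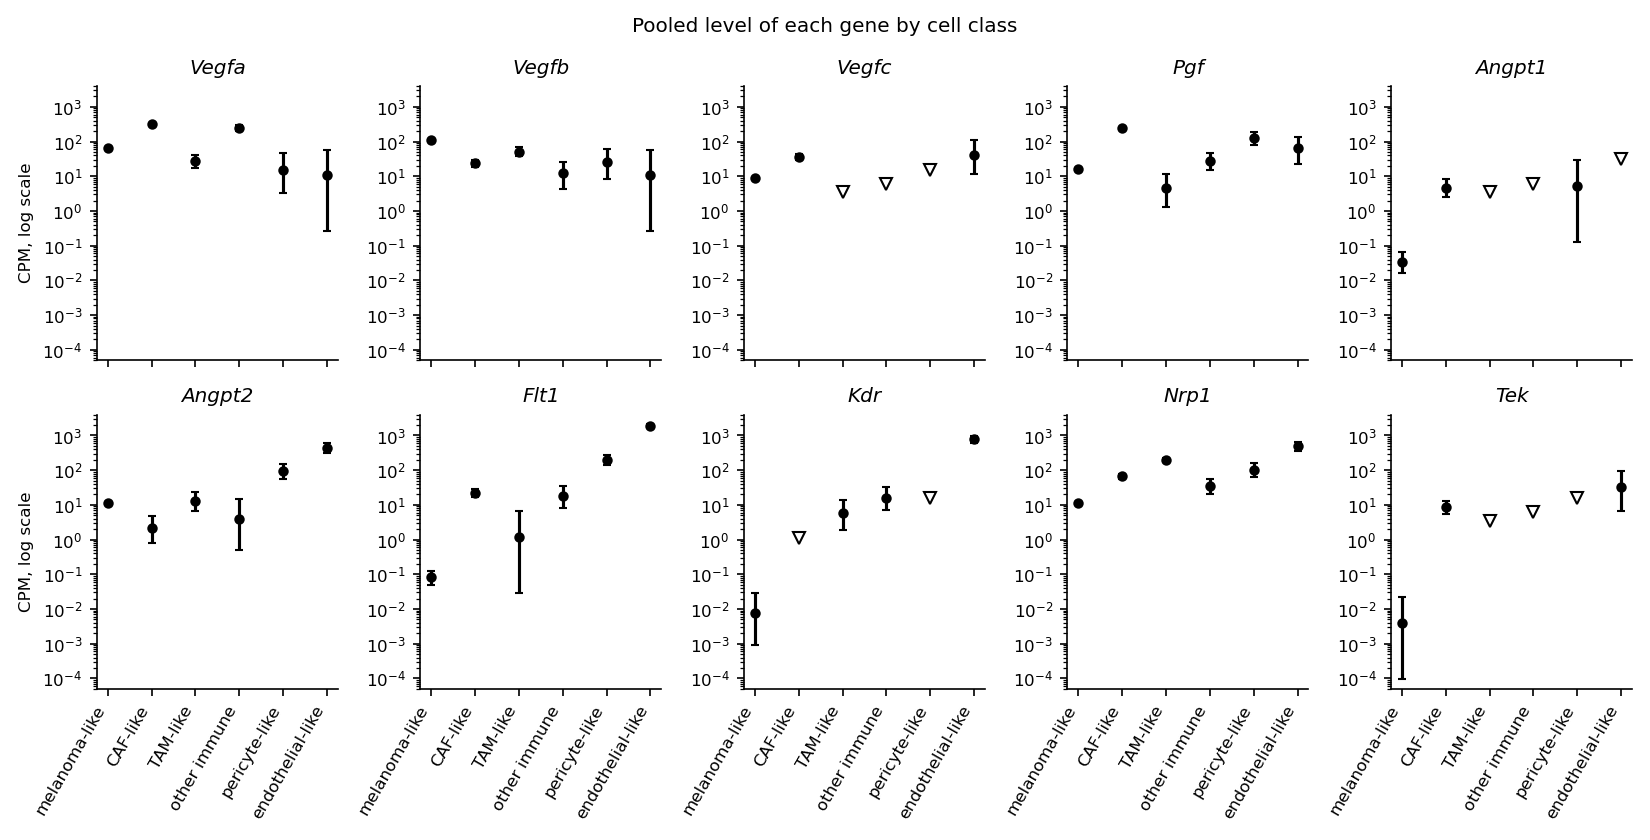
Level of each of the 10 genes (CPM, log scale) in 6 cell classes, with all 8 tumours pooled. Points are levels with 95% Poisson intervals and open triangles mark the level of 3 counts where no UMI was seen. Flt1, Kdr and Angpt2 peak in endothelial-like cells at 1890, 781 and 433 CPM, and Vegfa and Pgf in CAF-like cells at 331 and 251 CPM.

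A different ranking arose when the cells were counted with their numbers and sizes. Melanoma-like cells held 91.4% of all Vegfa UMIs, 97.4% of Vegfb, 93.2% of Vegfc, 83.4% of Pgf and 95.5% of Angpt2, while CAF-like cells held 4.90% of Vegfa and 13.4% of Pgf. For Nrp1 the melanoma-like share was 84.6%. Endothelial-like cells held 56.8% of the Flt1 and 80.4% of the Kdr UMIs, and CAF-like cells 18.7% of the Flt1, 82.8% of the Tek and 50% of the Angpt1 UMIs. For Kdr the endothelial-like share was 82.0% in Atf4WT/WT and 78.6% in Atf4Δ/Δ tumours, and for Flt1 72.3% and 41.0%, with 10.1% and 27.6% of the Flt1 UMIs in CAF-like cells. These pooled values carry no test, and 19 and 15 endothelial-like cells stand behind them. Of the 19 in Atf4WT/WT tumours, 15 came from replicate 1. CAF-like cells held 16 Flt1 UMIs among 779684 UMIs of all genes in Atf4WT/WT tumours. In Atf4Δ/Δ tumours they held 43 among 1955049, so their share of Flt1 also rose with the amount of CAF-like RNA. All shares in this paragraph are of the cells recovered, of which melanoma-like cells were 84.2%. They held 257216790 UMIs of all genes, against 2734733 in CAF-like cells. A high melanoma-like share therefore does not by itself mean a high level per UMI. Vegfa, Vegfc, Pgf, Angpt2 and Nrp1 had a higher level in another class. Vegfb was higher in melanoma-like than in CAF-like or TAM-like cells.

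**Figure D2:**
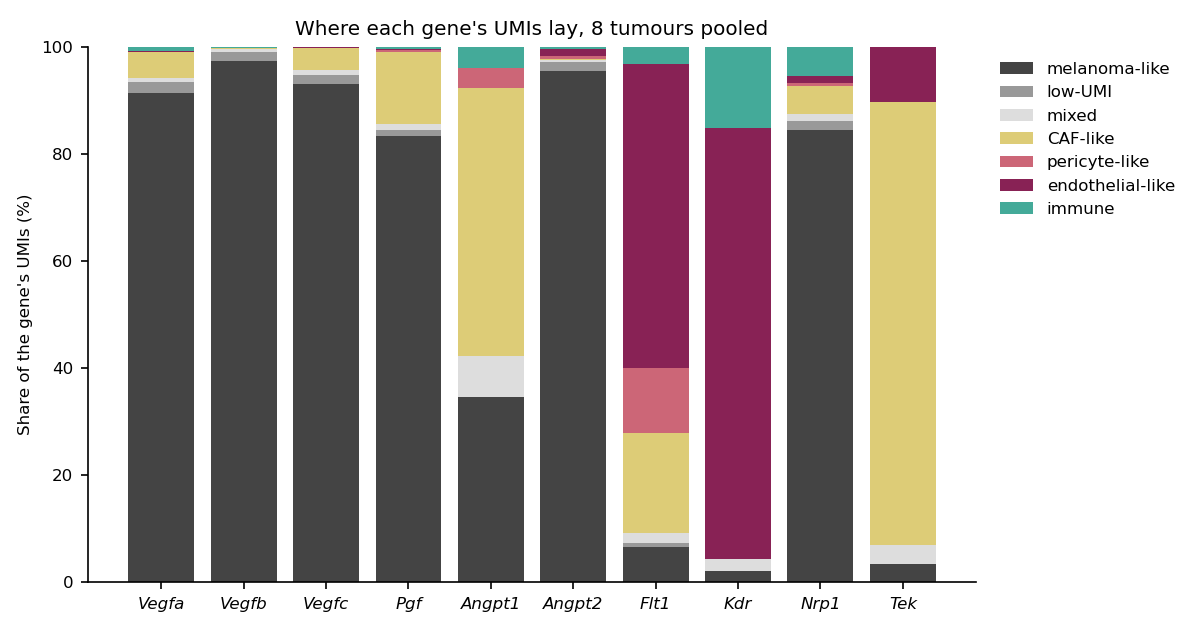
Share of each gene's UMIs (%) in 7 groups of cells, 8 tumours pooled, as stacked bars that sum to 100%. Melanoma-like cells (dark grey) hold 83.4% to 97.4% of the UMIs of Vegfa, Vegfb, Vegfc, Pgf and Angpt2, and endothelial-like cells hold 80.4% of the Kdr UMIs.

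The class differences were tested across the tumours with edgeR's quasi-likelihood test on summed counts, with the tumour as a block and Benjamini-Hochberg adjustment over all genes. Between CAF-like and melanoma-like cells in 7 tumours, 9 of the 10 genes were tested and all 9 passed, 7 of them higher and 2 lower in CAF-like cells, where 58.6% of all tested genes passed, 27.9% higher and 30.7% lower. Pgf was higher in CAF-like cells by a log2 fold change of 4.04 (SE 0.19, adjusted p = 1.4e-21), Nrp1 by 2.77 (SE 0.18), Vegfa by 2.48 (SE 0.15, adjusted p = 2.7e-18) and Vegfc by 2.24 (SE 0.22). Flt1 and Angpt1 were also higher, with ratios pooled over all 8 tumours of 264 (counting interval 158–458) and 136 (53.7–360). Tek was higher too, but melanoma-like cells held 1 Tek UMI. Its pooled ratio was 752 with a floor of 3 counts over the class. Vegfb and Angpt2 were lower by 2.12 (SE 0.17) and 2.27 (SE 0.52) on the log2 scale. The median log2 difference of all tested genes was −0.14. Flt1, Angpt1 and Tek passed the filter on low counts only through CAF-like cells, where they were high, and Kdr was not tested. Angpt2, with 6 UMIs in CAF-like cells, passed it only through melanoma-like cells. Nothing is therefore read from the calls of Flt1, Angpt1, Tek and Angpt2 or from the counts of genes in each direction.

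Between TAM-like and melanoma-like cells in 7 tumours, 6 genes were tested and 5 passed, 1 higher and 4 lower in TAM-like cells, where 44.9% of all genes passed, 17.3% higher and 27.6% lower, and the median log2 difference of all genes was −0.43. Nrp1 was higher in TAM-like cells by 3.91 (SE 0.22, adjusted p = 3.9e-66). Vegfa was lower by 1.28 (SE 0.31), Vegfb by 1.16 (SE 0.24) and Pgf by 1.59 (SE 0.64, adjusted p = 0.030), and Vegfc was lower with no UMI in the TAM-like class. Vegfc, and Pgf with 4 UMIs in TAM-like cells, entered the test only through their counts in melanoma-like cells. Nothing is therefore read from the calls of Vegfc and Pgf or from the counts of genes in each direction. The Pgf call was lost with DESeq2's size factors in edgeR (adjusted p = 0.057) and with DESeq2 (adjusted p = 0.15), and with adjusted p = 0.12 without Atf4Δ/Δ replicate 2, 0.063 without Atf4Δ/Δ replicate 4 and 0.12 without Atf4WT/WT replicate 3. Angpt2 differed by 0.15 (SE 0.48, 95% interval −0.80 to 1.1), which did not pass, and by −0.38 without Atf4Δ/Δ replicate 1.

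Within the melanoma, Vegfa and Pgf were higher in a cluster with high hypoxia genes. Cluster 0 of the melanoma-like cells (3502 cells, present in all 8 tumours) was picked for its high sum of 12 hypoxia genes, among them Car9 and Bnip3, and none of the 10 genes entered the clustering. The sum in cluster 0 was 3254 CPM. The other melanoma-like cells included clusters with sums of 2804 and 1955 CPM, so they were not all low in hypoxia genes. Because the clusters were made from the expression of the same cells, the differences below are descriptions without a test. Vegfa was at 121.3, 164.9, 135.6 and 135.2 CPM in the cluster in Atf4WT/WT replicates 1 to 4, against 38.8, 57.8, 44.9 and 35.9 CPM in the other melanoma-like cells, and at 155.7, 182.1, 194.4 and 218.3 against 49.8, 55.0, 58.6 and 75.9 CPM in Atf4Δ/Δ replicates 1 to 4. The means were 163 ± 33.2 and 52.1 ± 12.8 CPM (SD, n = 8), with every tumour higher and no overlap. Pgf was at 85.4, 58.6, 102.6 and 122.4 CPM against 8.45, 9.47, 10.4 and 5.35 CPM in the Atf4WT/WT replicates, and at 87.6, 42.0, 80.0 and 59.2 against 13.6, 3.11, 9.32 and 10.95 CPM in the Atf4Δ/Δ replicates, or 79.7 ± 26.0 and 8.84 ± 3.29 CPM on average.

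The other ligands and Nrp1 did not share this direction. The fit behind the differences that follow called 4 of the 6 genes tested and 59.9% of all genes, and nothing is read from these counts. Vegfc was lower in the cluster by 0.72 (SE 0.11) and Nrp1 by 0.82 (SE 0.10) on the log2 scale, while Vegfa and Pgf were higher by 1.74 (SE 0.04) and 3.16 (SE 0.11). Vegfb and Angpt2 differed by −0.08 (SE 0.04) and −0.19 (SE 0.09).

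**Figure D3:**
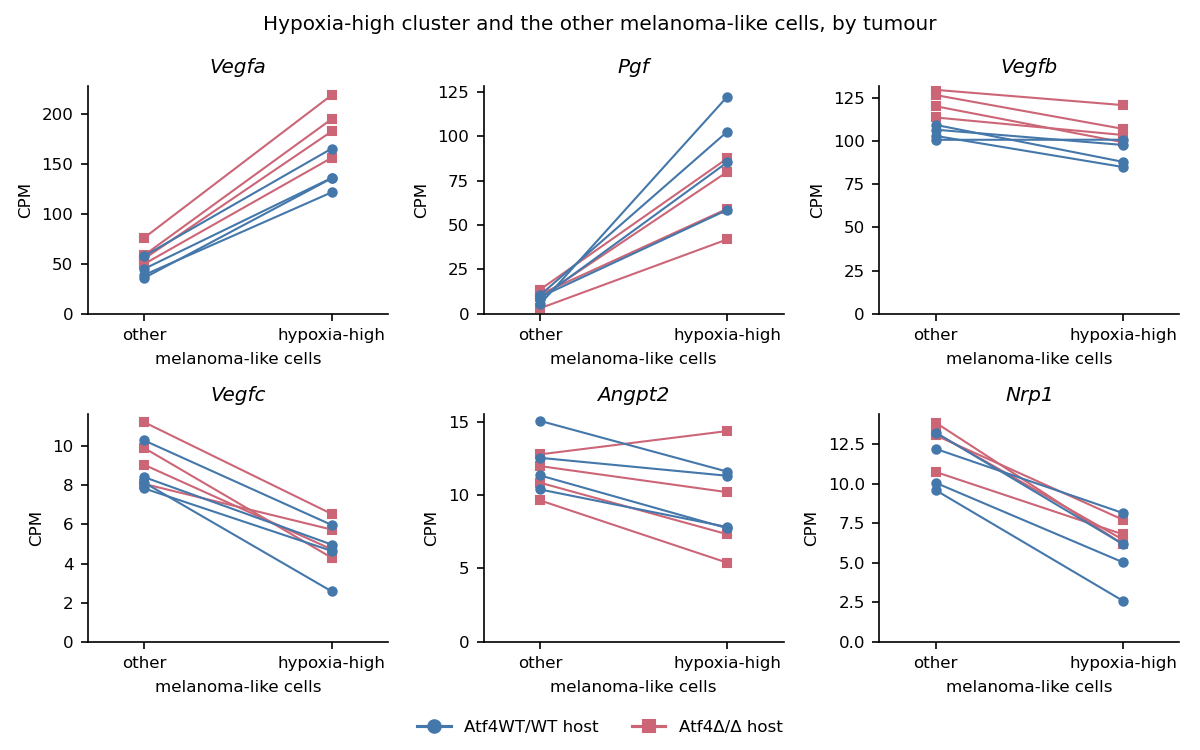
Levels (CPM) of 6 genes in the hypoxia-high melanoma-like cluster and in the other melanoma-like cells, with 1 line per tumour (4 Atf4WT/WT in blue, 4 Atf4Δ/Δ in red). Vegfa and Pgf are higher in the cluster in every tumour (means 163 against 52.1 and 79.7 against 8.84 CPM).

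Vegfa and Pgf were also higher in the CAF-like subcluster with the higher hypoxia sum. The CAF-like cells split into a subcluster whose leading genes were Pgf, which did not enter the clustering, Ndrg1, Cck and Inhba (184 cells, hypoxia sum 4928 CPM) and the one led by Ptx3 (406 cells, 1201 CPM). Vegfa was at 786 CPM (721–855) in the former and 180 CPM (162–199) in the latter, and Pgf at 809 CPM (743–879.5) and 64.8 CPM (54.3–76.8). Of the 184 cells, 140 held a Vegfa UMI, 101 a Pgf UMI and 89 both. Nrp1 had the reverse order, at 20.5 CPM (11.2–34.4) and 80.9 CPM (69.1–94.2). Among the other immune cells, the subcluster with a hypoxia sum of 3634 CPM held Vegfa at 626 CPM (500–775) and Pgf at 81.1 CPM (40.5–145). Its 117 cells were led by Inhba, Arg1 and Cxcl3, and 7 of the 10 TAM markers were each seen in at least 10% of them. The lower Vegfa of TAM-like cells therefore does not hold for all cells with macrophage markers. Pericyte-like cells, with a hypoxia sum of 281 CPM, had Pgf at 125 CPM, so that its level did not follow the hypoxia sum across all classes.

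**Figure D4:**
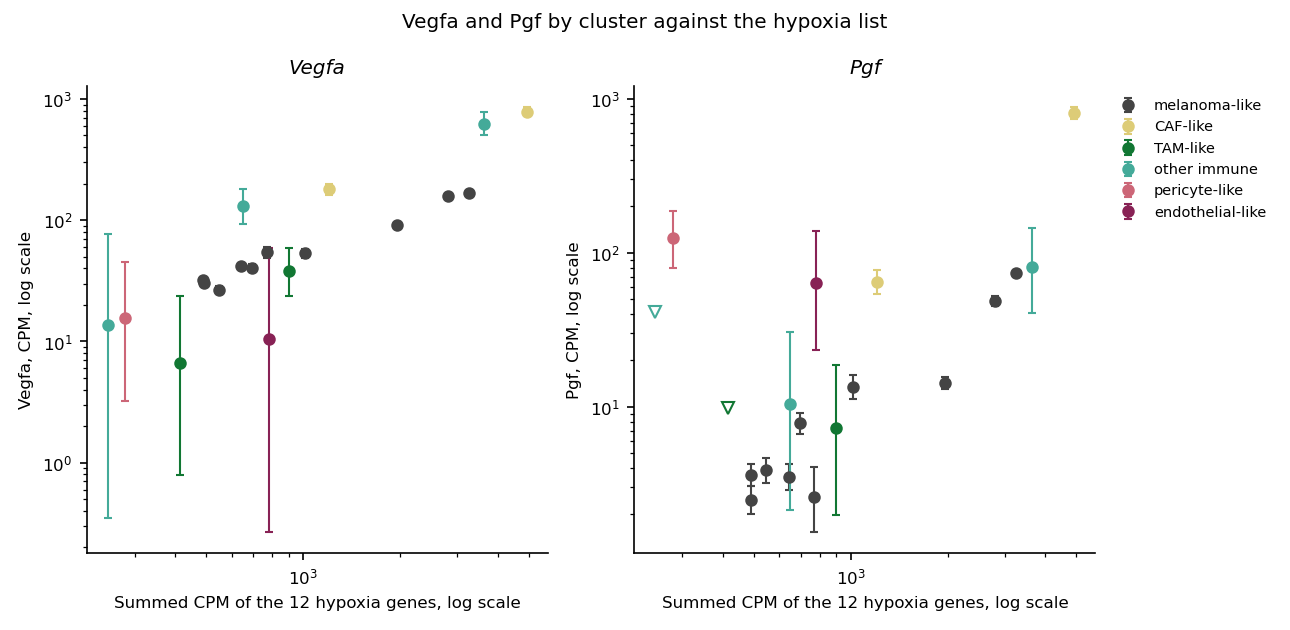
Vegfa and Pgf (CPM, log scale) in each cluster or subcluster against its summed CPM of the 12 hypoxia genes (log scale), coloured by class, with 95% Poisson intervals; open triangles mark 3 counts where no UMI was seen. The hypoxia-high CAF-like subcluster is highest for both, at 786 CPM for Vegfa and 809 CPM for Pgf.

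The comparison of host genotypes asked whether any of these genes depended on ATF4 in the host. None of them passed the adjusted test in any class. In melanoma-like cells 6 were tested and none passed, where 0.0319% of all 12553 genes did; in CAF-like cells 3 and none, where 0.359% did; in TAM-like cells 1 and none, and over all cells 7 and none, where no gene passed in either (0%). DESeq2 called none of them in any of the 4 fits. The p-values measure the spread between tumours of different mice. At an unadjusted p under 0.05, the numbers of these genes were 2 in melanoma-like cells, where 1416 of all 12553 genes were, 1 in CAF-like cells (332 of 4182), 1 in TAM-like cells (94 of 1348) and 2 over all cells (1371 of 13117).

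Vegfa in melanoma-like cells was at 47.8, 76.5, 53.2 and 39.0 CPM in Atf4WT/WT replicates 1 to 4 and at 66.9, 66.1, 74.4 and 100.7 CPM in Atf4Δ/Δ replicates 1 to 4. The groups overlapped, since Atf4WT/WT replicate 2 exceeded 3 of the 4 Atf4Δ/Δ tumours, and the log2 fold change was 0.46 (SE 0.19, 95% interval 0.04 to 0.88, adjusted p = 0.41). The summed hypoxia genes in these cells were 1048, 1487, 1010 and 737 CPM in the Atf4WT/WT and 1463, 1001, 1322 and 1549 CPM in the Atf4Δ/Δ tumours, and their part in the Vegfa values was not tested. In CAF-like cells Vegfa was at 463, 162, 384 and 290 CPM in Atf4WT/WT replicates 1 to 4 and at 317, 262 and 343 CPM in Atf4Δ/Δ replicates 1, 2 and 4, with a log2 fold change of −0.08 (SE 0.24, adjusted p = 0.98).

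Vegfb in melanoma-like cells showed no overlap. It was at 107, 105, 101 and 102 CPM in the Atf4WT/WT tumours and at 128, 113, 118 and 123 CPM in the Atf4Δ/Δ tumours, a log2 fold change of 0.18 (SE 0.07, adjusted p = 0.37). Groups without overlap were also seen for 6.62% of all genes tested in these cells, 8.01% in CAF-like cells, where Pgf was such a gene, 8.61% in TAM-like cells, where Nrp1 was not, and 6.29% over all cells, where Vegfb was.

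Pgf in CAF-like cells was higher in the tested Atf4Δ/Δ tumours by more than the spread between replicates, but did not pass the adjusted test. It was at 199.7, 98.95, 204.6 and 179.4 CPM in the 4 Atf4WT/WT tumours and at 321.7, 312.5 and 255.1 CPM in Atf4Δ/Δ replicates 1, 2 and 4. These groups did not overlap, and the log2 fold change was 0.77 (SE 0.21, 95% interval 0.33 to 1.21, adjusted p = 0.17 by edgeR). The untested Atf4Δ/Δ replicate 3, with 8 CAF-like cells, had 31.8 CPM. With no filter on low counts the adjusted p was 0.013. Within the hypoxia-high CAF-like subcluster Pgf was at 560, 238, 626 and 447 CPM in the Atf4WT/WT tumours and at 930, 1237 and 834 CPM in Atf4Δ/Δ replicates 1, 2 and 4. The subcluster held 15, 6, 23 and 11 cells in the former and 39, 28 and 60 in the latter. Atf4WT/WT replicate 2 thus had fewer than 10 cells there, and Atf4Δ/Δ replicate 3, left out, had 2. The hypoxia sum in all CAF-like cells was 1968, 1304, 2079 and 1436 in the Atf4WT/WT tumours against 2339, 2129 and 2291 CPM in Atf4Δ/Δ replicates 1, 2 and 4. The part of the hypoxia genes in the Pgf values was not tested. In melanoma-like cells Pgf was at 9.08 to 18.9 and at 6.51 to 25.5 CPM in the Atf4WT/WT and Atf4Δ/Δ tumours.

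The genotype difference was compared between CAF-like and melanoma-like cells for 9 genes, and none passed, where 0.727% of all genes did. It was higher in CAF-like cells by 0.80 for Pgf (SE 0.23, adjusted p = 0.057) and lower by 0.59 for Vegfa (SE 0.20, adjusted p = 0.23). The Pgf difference passed without Atf4Δ/Δ replicate 1 (1.18, adjusted p = 0.0061), Atf4Δ/Δ replicate 4 (1.15, adjusted p = 0.028) or Atf4WT/WT replicate 4 (1.1, adjusted p = 0.0030), and the Vegfa difference without Atf4WT/WT replicate 2 (−0.89, adjusted p = 0.0038).

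Nrp1 in TAM-like cells was at 121, 92.7 and 206 CPM in Atf4WT/WT replicates 1, 3 and 4 and at 165, 243, 299 and 182 CPM in the Atf4Δ/Δ tumours. The groups overlapped through Atf4WT/WT replicate 4, and the log2 fold change was 0.74 (SE 0.32, adjusted p = 0.65). For none of the 10 genes did the share of UMIs held by melanoma-like cells pass an exact two-sided permutation test between genotypes; it was 89.0% ± 6.68 in Atf4WT/WT and 76.3% ± 16.3 in Atf4Δ/Δ tumours for Pgf (SD, n = 4, exact p = 0.23, adjusted p = 0.86). The smallest p that 4 against 4 tumours allow is 0.0286, so that after adjustment over the 10 genes a single gene could not have passed and the outcome says little. In such shares, fewer cells of a class and less RNA per cell cannot be told apart, and CAF-like cells numbered 24 to 61 in the Atf4WT/WT and 8 to 196 in the Atf4Δ/Δ tumours.

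**Figure D5:**
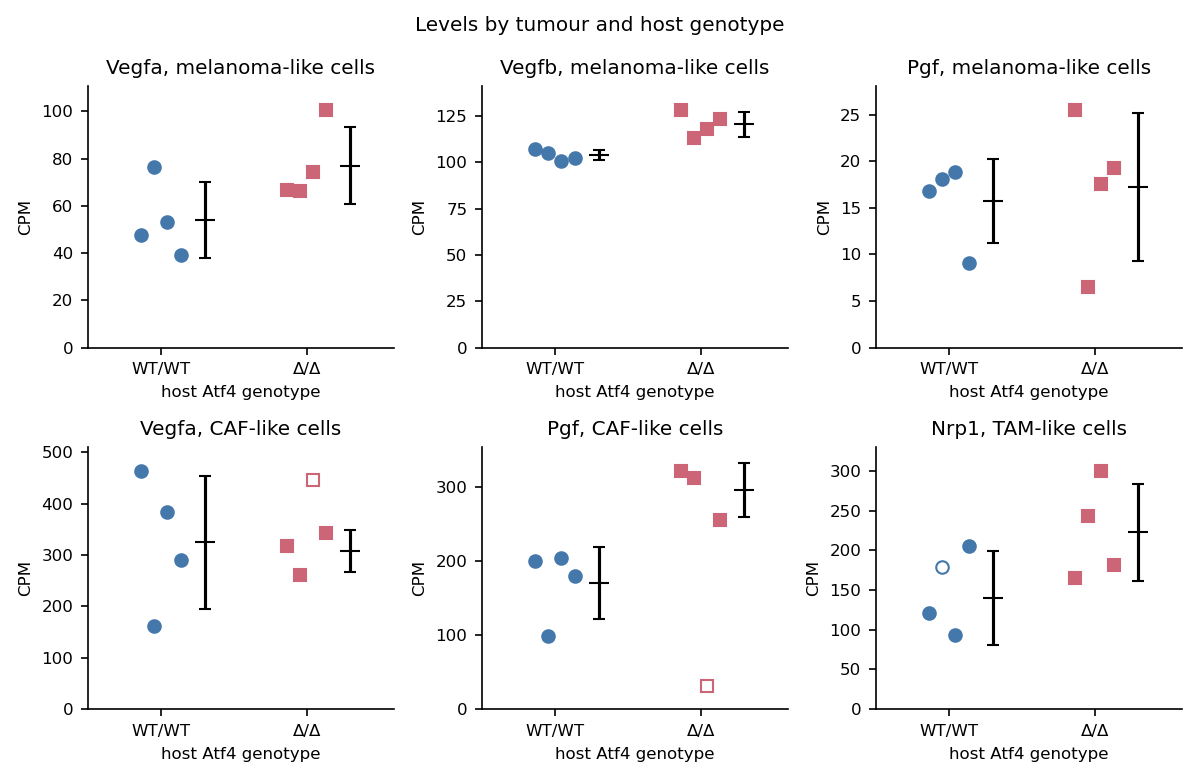
Levels (CPM) by tumour in Atf4WT/WT (blue circles) and Atf4Δ/Δ hosts (red squares) for 6 pairs of gene and cell class; black bars are the mean ± SD of the tested tumours and open symbols are tumours with fewer than 10 cells of the class. Pgf in CAF-like cells lies at 98.95 to 204.6 CPM in Atf4WT/WT and 255.1 to 321.7 CPM in tested Atf4Δ/Δ tumours.

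A list of 32 further genes of the pathway gave the surroundings of these ligands and receptors. In CAF-like against melanoma-like cells, 26 were tested, of which 18 were higher and 5 lower, where 27.9% and 30.7% of all genes were. Genes near 0 in melanoma-like cells could enter this test only if they were high in CAF-like cells. Higher were the transcription factor Epas1 (log2 fold change 2.19) and Hif1a (0.89), the Notch ligand Jag1 (2.76), the receptor Notch1 (3.26), Sema3c (3.44) and Apln (6.60), as well as Vegfd, Plxna4, Sema3a and Esm1. Lower were the co-receptor Nrp2, which fell by 1.86, the semaphorin receptors Plxnd1, by 2.03, and Plxna1, by 1.14, with Sema3b and Flt4. In TAM-like against melanoma-like cells 18 were tested, with Nrp2 (0.82), Notch1 (2.68) and Jag1 (1.68) higher and 5 genes lower, where 17.3% and 27.6% of all genes were. Genes near 0 in TAM-like cells could enter that test only if melanoma-like cells held them. By genotype none of the list passed in any class, nor did any of the 12 hypoxia genes tested in melanoma-like cells or of the 8 tested in CAF-like cells. The most different was Apln in melanoma-like cells (log2 fold change 0.97, adjusted p = 0.28), named after its value was seen.

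Over the 26 clusters and subclusters, the genes whose pooled levels were most alike, by Pearson's r of log2(CPM + 1), were Slc16a3 (0.82), Mt2 (0.79) and Ero1l (0.78) for Vegfa and Plat (0.75), Stc1 (0.75) and Ddit4 (0.75) for Pgf. For Flt1 they were Mtus1 (0.93), Id3 (0.91) and Efnb2 (0.91), for Kdr Cd300lg (0.86), Abhd15 (0.85) and Kcne3 (0.81), and for Nrp1 Tmem2 (0.89), Adam15 (0.87) and Nptn (0.86). For Vegfb they were Scly (0.98), Metrn (0.97) and Itgb3bp (0.97), for Vegfc Pomgnt2 (0.87), Sema6a (0.87) and Dpysl3 (0.86), and for Angpt2 Prag1 (0.87), Cav2 (0.84) and Mest (0.82). These points share libraries and differ in depth. Ero1l is also a member of the hypoxia list, and Angpt1 and Tek, with fewer than 50 UMIs, were left out.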

How the data were processed

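Single-cell RNA libraries of 8 B16F10 tumours were used. The deposited tables hold raw counts, whole UMI numbers per gene and barcode. Per the labels and the study's methods, the authors made them with Cell Ranger 3.1.0 on GRCm38 and used Seurat 3.2.1. They applied no normalisation to the deposited values. The study's methods and reporting form also name an earlier Cell Ranger release, and the 10x kit is V3 in the labels and V2 in the methods. The members and lists were chosen with earlier results of these data known. Barcodes with 200 to 5000 genes and at most 7.5% mitochondrial UMIs were kept, clustered with Seurat 5.3.0 in R 4.3.3 without the 10 genes, and named from marker lists. A small cluster of high mitochondrial share was removed, and low-UMI clusters and mixed barcodes with melanoma and host markers were kept out of the named classes. No doublet caller was used, so remaining doublets were not removed, and libraries shared 399 barcode sequences among 41925.

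Within each class, the counts of a tumour were added up if it had at least 10 cells, and tested with edgeR 4.0.16 (quasi-likelihood, TMM, filterByExpr, Benjamini-Hochberg adjusted p under 0.05). Shares of UMIs were compared by exact permutation. Depth was 37283598 to 74942137 UMIs per tumour; Poisson intervals at 95% and floors of 3 counts cover counting error only. All 10 genes were described in each class, the 3 genes most alike to each were named by Pearson correlation, and 32 pathway genes were named where past the threshold, 12 hypoxia genes being given beside Vegfa and Pgf. Alternatives were DESeq2 1.42.0, its size factors, no filter on low counts, a replicate block, the host's sex, leaving out each tumour, another clustering resolution, other class definitions, and a 15% mitochondrial limit. Counts for the CAF-like genotype comparison (4182 genes) were also simulated, with 200 genes changed and 1 common dispersion for all genes. Of the genes changed by a log2 fold change of 1, 64% were recovered, and 99% of those changed by 2. These settings are simpler than the data, so the shares are not the power of the fit itself. Tables of gene and barcode names carry no measurement, and small tumours were not analysed here.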

Additional observations from a re-analysis of the deposited data

Results flagged for a closer look

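Of 55 sets of 4 tumours of one genotype that were examined, 8 had a tumour far from the other 3. A set with UMIs in a single tumour and 0 in the other 3 is always flagged. The number of flagged sets is therefore not compared with chance. Vegfa over all cells was at 110 CPM in Atf4Δ/Δ replicate 4, against 68.8 to 74.8 CPM in the other Atf4Δ/Δ tumours. Angpt2 in TAM-like cells was at 44.04 CPM in Atf4Δ/Δ replicate 1, against 12.5 to 13.0 CPM, and Angpt2 in CAF-like cells was at 9.74 CPM in Atf4WT/WT replicate 1, against 0 in the other Atf4WT/WT tumours. Flt1 in TAM-like cells was at 11.01 CPM in Atf4Δ/Δ replicate 1 and 0 in the others. In melanoma-like cells Kdr was at 0.0312 CPM in Atf4Δ/Δ replicate 4 and at 0.0204 CPM in Atf4WT/WT replicate 1, and Tek at 0.0251 CPM in Atf4Δ/Δ replicate 3, with 0 in the other tumours of each group. Tek over all cells was at 0 in Atf4WT/WT replicate 2, against 0.0390 to 0.0397 CPM in the other Atf4WT/WT tumours. Except for Vegfa, these values rest on very few UMIs, for Angpt2 in TAM-like cells on 4, 4, 1 and 1 in Atf4Δ/Δ replicates 1 to 4.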

How the results depend on the processing

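With no filter on low counts, or with the replicate block, 1 gene (Pgf, adjusted p 0.013 and 0.027 by edgeR) passed between genotypes in CAF-like cells instead of 0. Same-numbered tumours correlated at −0.46 to 0.03 and none best with its own number, so the numbers were not taken as pairs; the block gave a log2 fold change of 0.88 for Pgf. Vegfa in CAF-like cells turned from −0.08 to 0.078 with the block and to 0.088 with pericyte-like cells added, an alternative chosen after seeing the data, as were mixed barcodes in the CAF-like class and the marker gate without melanoma-like cells. Leaving out 1 tumour at a time gave 0 to 1 genes called for the difference of the genotype effects between classes, and changed the sign of these log2 differences: in melanoma-like cells, Vegfc at −0.023 to 0.16 and Pgf at −0.18 to 0.36; in CAF-like cells, Vegfa at −0.26 to 0.11 and Nrp1 at −0.498 to 0.097; over all cells, Flt1 at −0.21 to 0.63; and between TAM-like and melanoma-like cells, Angpt2 at −0.38 to 0.41. The melanoma-like share of Vegfa UMIs differed between genotypes by −2.37 to 2.03 percentage points. The cause of these changes was not tested. Few CAF-like, TAM-like and endothelial-like cells limit what could be seen: Angpt1 and Tek had 26 and 29 UMIs, and 3, 1 and 6 of the 10 genes entered the genotype tests in CAF-like, TAM-like and melanoma-like cells.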
